A study of Mus musculus with 6 samples.

Results

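The genes described here are 10 components of protein folding in the endoplasmic reticulum (ER) and of the unfolded protein response: Calr, Canx, Hspa5, Hsp90b1, Pdia3, Pdia4, Pdia6, Xbp1, Atf4 and Ddit3. They were taken by name, as every array probe set whose annotation gave 1 of these symbols and no other, which gave 23 of the 22626 probe sets that are not array controls. Of these 23, 19 were bright enough to be tested among 13575 probe sets, and they covered 9 of the 10 genes. Both Pdia4 probe sets, 1 of 2 for Pdia6 and 1 of 3 for Atf4 were below that level and are given as signals.

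RNA came from LSK cells of mouse bone marrow, the lineage-negative, Sca-1-positive, Kit-positive fraction in which haematopoietic stem cells and early progenitors are enriched. The design compares cells of Gfi1 knockout mice with cells of Gfi1 wild-type mice, to find expression changes across the genome. Gfi1 is a transcriptional repressor of stem cells and of granulocyte and lymphoid development. Each group had 3 arrays, numbered 5, 7 and 8 in both. The labels name no further allele, strain, age or treatment, and do not say whether a sample is 1 mouse or a pool, so p-values measure only the spread between these samples, which may be technical. Precision is limited by this number of arrays.

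The labels were checked on Gfi1 itself. Its probe set gave 692, 1163 and 1737 in the knockout and 632, 608 and 723 in the wild type (0.76 ± 0.28 on the log2 scale, limma adjusted p = 0.148), so the label knockout went with no lower Gfi1 signal. Whether it lies in the deleted part is not given in the sources used here. In what follows, a knockout array is an array labelled knockout, and every direction rests on these labels. Kit, by which the cells were sorted, was present on all arrays and fell by 0.71 ± 0.17 (adjusted p = 0.0381), a call lost in 8 of 16 alternatives (adjusted p up to 0.131). Sca-1 (Ly6a) was not analysed here. The median signal of an array was 286 to 335, and the Gapdh control's 3' over 5' signal, a sign of RNA integrity and amplification, overlapped between the groups (4.30 to 6.11 and 4.44 to 5.73). Wild-type array 8 correlated better than the other wild-type arrays with knockout arrays 7 and 8 (r = 0.948 and 0.955), but with knockout array 5 wild-type array 5 did (0.943 against 0.942).

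Membrane and secreted proteins fold in the ER. Hspa5 (BiP), an Hsp70 chaperone, and Hsp90b1 (GRP94), an Hsp90 chaperone, bind unfolded chains. The lectin chaperones Calr (calreticulin) and Canx (calnexin) hold glycoproteins together with the disulfide isomerase Pdia3 (ERp57), and Pdia4 and Pdia6 are further disulfide isomerases. When unfolded proteins accumulate, 3 membrane sensors respond. Ern1 (IRE1) splices the Xbp1 mRNA, Atf6 is cut to release a transcription factor, and both raise chaperone genes. Eif2ak3 (PERK) slows translation, which favours production of the ATF4 protein and then of Ddit3 (CHOP). The arrays measure neither splicing nor translation: a probe set here reports Xbp1 or Atf4 mRNA, not the activity of the factor.

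The promoters of the chaperones are shown as a description. The element searched is one known from ER chaperone genes, so its share among the members tests nothing. The ER stress response element (ERSE), CCAAT, any 9 bases and CCACG (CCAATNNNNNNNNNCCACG), was searched on both strands, without mismatch, in windows of 300 bases around RefSeq gene starts of the GRCm38.p6 assembly. It lay in 39 of 32817 windows, 0.119%, and in 5 of the 10 member windows: those of Calr, Canx, Hspa5, Hsp90b1 and Pdia6. The Hsp90b1 window held 2. Positions count from the start of the gene, with -1 the base before it, and capitals mark the fixed letters, which read CGTGG and ATTGG where the element lies on the opposite strand.
Calr, -162 to -144, opposite strand: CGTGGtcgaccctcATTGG
Canx, -145 to -127, transcript strand: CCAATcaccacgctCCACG
Hsp90b1, -212 to -194, transcript strand: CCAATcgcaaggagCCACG
Hsp90b1, -107 to -89, opposite strand: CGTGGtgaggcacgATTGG
Hspa5, -65 to -47, transcript strand: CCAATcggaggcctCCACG
Pdia6, -98 to -80, transcript strand: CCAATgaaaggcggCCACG
The 250 bases before the start are printed for Calr and Pdia6, the members whose signal rose, and for Hspa5, which has the same element and whose difference did not pass the test.
Calr, chr8:84846932-84847181, strand -: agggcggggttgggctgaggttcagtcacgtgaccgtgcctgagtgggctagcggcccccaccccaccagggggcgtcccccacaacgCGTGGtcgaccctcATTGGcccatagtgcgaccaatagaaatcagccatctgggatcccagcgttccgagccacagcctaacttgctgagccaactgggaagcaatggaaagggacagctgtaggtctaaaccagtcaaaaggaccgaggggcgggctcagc
Pdia6, chr12:17266339-17266588, strand +: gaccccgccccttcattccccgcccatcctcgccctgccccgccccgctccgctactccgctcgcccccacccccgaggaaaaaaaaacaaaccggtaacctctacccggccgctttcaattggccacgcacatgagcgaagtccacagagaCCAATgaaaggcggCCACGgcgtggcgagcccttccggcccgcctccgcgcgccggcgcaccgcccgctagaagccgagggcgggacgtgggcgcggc
Hspa5, chr2:34771840-34772089, strand +: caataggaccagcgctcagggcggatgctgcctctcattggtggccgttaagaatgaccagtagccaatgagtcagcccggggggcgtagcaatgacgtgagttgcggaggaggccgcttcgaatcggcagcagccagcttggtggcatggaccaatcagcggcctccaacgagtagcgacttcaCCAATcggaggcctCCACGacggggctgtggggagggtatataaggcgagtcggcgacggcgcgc
3 further motifs were searched in the same way: ERSE-II (ATTGGNCCACG, in 0.0366% of windows), the core of the unfolded protein response element (TGACGTGG, 0.676%) and the C/EBP-ATF element bound by ATF4 (TGATGNAA, 3.97%). None of these was in a member window, and no ERSE overlapped another of these motifs. A match is a run of letters, and its absence says only that these letters are not in this window.

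The signal of Calr and Pdia6 rose in the Gfi1 knockout arrays, by 1.81-fold and 1.63-fold, while no probe set of the other 7 tested genes passed in either direction. At an adjusted p under 0.05, 3 of the 19 tested member probe sets were higher and 0 lower (1.44% and 2.19% of all probe sets tested were higher and lower, 3.63% either way). At an unadjusted p under 0.05, 10 were higher and 1, Ddit3, lower (1232 and 1429 of all 13575 probe sets tested). By brightest probe set these were 5 and 1 of the 9 tested genes. Differences lay above 0 for 18 of the 19, against 48.9% of all probe sets tested, and groups did not overlap for 7, higher in the knockout, and 1, lower (11.9% and 12.1% of all). Over the 9 tested genes, each by its brightest probe set, the median difference was 0.36 on the log2 scale, against -0.01 for all genes tested. Differences are knockout minus wild type on the log2(signal + 16) scale from limma, each with its standard error (SE), and the adjusted p is Benjamini-Hochberg's over all 13575 probe sets. Without knockout array 8 no member probe set passed in limma, and without wild-type array 7 only 1 did. Over all probe sets tested, leaving out 1 array gave 35 to 270 higher and 89 to 288 lower (196 and 297 with all arrays). In bulk RNA a change in the share of a cell type and a change of RNA per cell cannot be told apart.

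**Figure D1:**
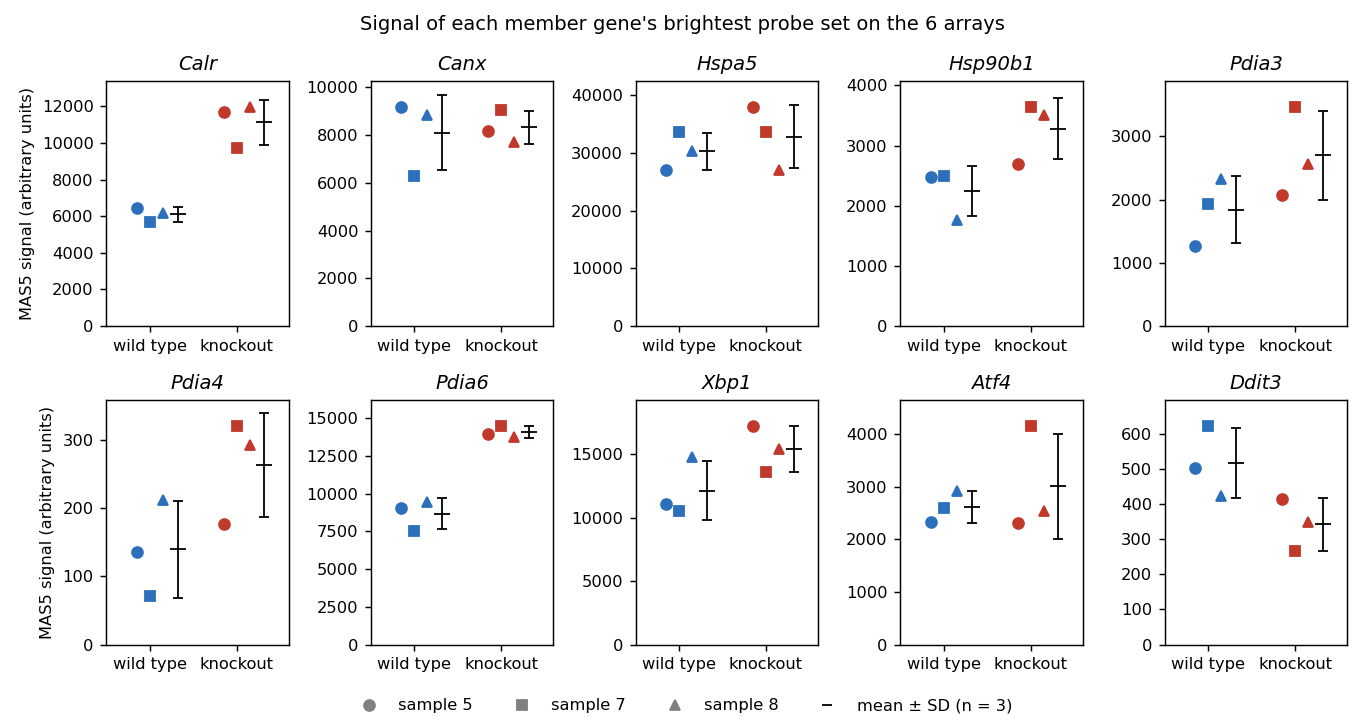
MAS5 signal (arbitrary units, linear axis from 0) of the brightest probe set of each of the 10 genes on the 3 wild-type (blue) and 3 knockout (red) arrays; marker shapes give the sample number and black bars the mean ± SD (n = 3). The knockout arrays lay above all wild-type arrays for Calr, Hsp90b1 and Pdia6 and below them for Ddit3, and the groups overlapped for the other 6 genes.

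Calr, the soluble lectin chaperone and calcium store of the ER, had 3 probe sets. The brightest, 1417606_a_at, gave signals of 11673, 9741 and 11954 in knockout samples 5, 7 and 8 against 6457, 5667 and 6193 in wild-type samples 5, 7 and 8, the order used throughout. The groups did not overlap, and their means were 11123 ± 1205 and 6106 ± 402 (SD, n = 3 each). Calr rose by 0.86 ± 0.15 (SE, limma adjusted p = 0.00673). A second Calr probe set, 1456170_x_at, rose by 0.82 ± 0.16 (adjusted p = 0.0140), with 5916, 5171 and 4968 against 3316, 2778 and 2949. The third, 1433806_x_at, stood at 0.50 ± 0.17 (adjusted p = 0.121) with 3832, 4013 and 4189.7 against 2479.7, 2676 and 3388, where wild-type array 8 stood above the other wild-type arrays. The groups did not overlap for any of the 3. An ending _x_at or _s_at marks a probe set whose probes can match further transcripts. The call of the brightest Calr probe set was lost without knockout array 8 (0.80, adjusted p = 0.0582) and with eBayes without trend (adjusted p = 0.0541). That of 1456170_x_at was lost without knockout array 5 (0.0508), knockout array 8 (0.0552) or wild-type array 7 (0.0608) and with eBayes without trend (0.0569).

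Canx, the membrane-bound relative of Calr, had 3 probe sets, and none passed the test. Its brightest probe set, 1415692_s_at, gave 8184, 9063 and 7719 on the knockout and 9167, 6307 and 8837 on the wild-type arrays, which overlapped, a difference of 0.05 ± 0.17 (adjusted p = 0.905). The dimmer probe sets 1422845_at and 1428935_at stood at 0.54 ± 0.25 and 0.21 ± 0.21 (adjusted p = 0.255 and 0.645). The signals of 1422845_at did not overlap: 829.6, 916 and 687 against 651, 381 and 671. The sign of the brightest Canx probe set turned in 2 of 16 alternatives, without knockout array 7 (-0.01) and without wild-type array 7 (-0.12).

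Pdia3, the isomerase that works with both lectins, had 1 probe set with 2065, 3459 and 2567 on the knockout and 1270.1, 1922 and 2328 on the wild-type arrays. Wild-type array 8 lay above knockout array 5. The difference was 0.56 ± 0.24 (adjusted p = 0.219), or a 1.47-fold level that did not pass the test.

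Hspa5, the chaperone that holds the sensors inactive, differed by 0.11 ± 0.15 (adjusted p = 0.749) by its brightest probe set, 1416064_a_at. The signals were 37919, 33627 and 26976 on the knockout arrays and 27046, 33550.0 and 30257 on the wild-type arrays. Knockout array 8 was the lowest of all 6 and knockout array 5 the highest, so the spread within the knockout group (SD 5514) exceeded the gap between the means of 32841 and 30284. The second probe set, 1427464_s_at, stood at 0.34 ± 0.15 (adjusted p = 0.226) with 14752, 12209 and 11041 against 9660.2, 9224 and 10912, without overlap. Among 8238 other genes tested, the 5 whose brightest probe set was most like the brightest Hspa5 probe set over the 6 arrays were Ttc28, Vipas39, Commd9, Ppif and Uts2r, with Pearson r of 0.976, 0.973, 0.968, 0.966 and 0.964. None of these 5 passed the test between the groups (adjusted p 0.688 to 0.903), and they hold no other member. As the highest of 8238 values over only 6 arrays, these r were picked for their height, and shared regulation with Hspa5 was not tested.

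Hsp90b1, the ER form of Hsp90, gave 2695, 3636 and 3511 on the knockout and 2475, 2499 and 1756 on the wild-type arrays by its brightest probe set, 1415889_a_at. The groups did not overlap, but the difference of 0.55 ± 0.20 did not pass the test (adjusted p = 0.136). Its dimmer probe set, 1438040_a_at, overlapped, at 0.22 ± 0.22 (adjusted p = 0.638).

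Pdia6, a disulfide isomerase that binds Hspa5, rose by 0.70 ± 0.14 (adjusted p = 0.0170). Its brightest probe set, 1423648_at, gave 13974, 14504 and 13765 on the knockout and 9065, 7502 and 9457 on the wild-type arrays, with means of 14081 ± 381 and 8675 ± 1035 (SD, n = 3 each). All knockout arrays lay above all wild-type arrays. The second Pdia6 probe set, 1430983_at, was dim and overlapped, with 210.0, 208 and 202 against 122, 302 and 151. Pdia6 kept its sign in all 16 alternatives, but its call was lost without knockout array 7 (adjusted p = 0.0689), knockout array 8 (0.0814) or wild-type array 7 (0.0739), with no brightness filter (0.0573) and with eBayes without trend (0.0915).

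Pdia4, an isomerase with an additional catalytic domain, was too dim to be tested. Probe set 1416497_at gave 176, 321 and 293 on the knockout and 136, 70.4 and 212 on the wild-type arrays, 2 of which did not exceed the brightest control probe set for Bacillus transcripts, taken here as the level of background. With no brightness filter the difference was 0.91 ± 0.42 (adjusted p = 0.369). Probe set 1450620_at gave 236, 177 and 149.5 against 149, 233 and 127, and the groups overlapped for both.

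**Figure D2:**
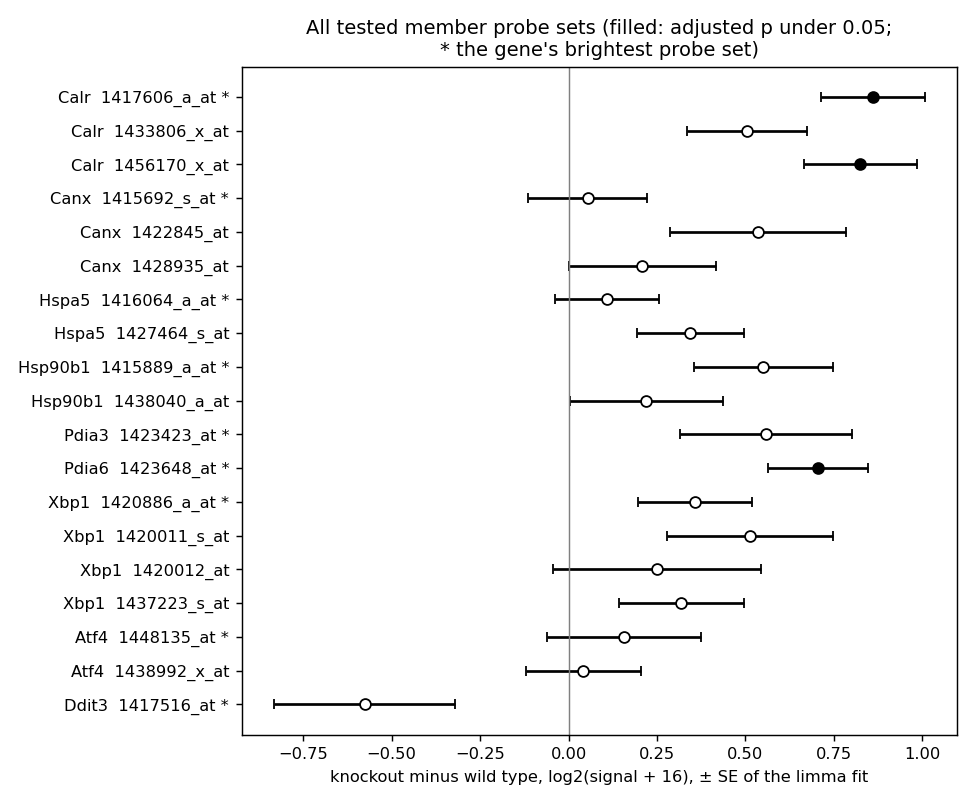
Difference between knockout and wild-type arrays (horizontal axis, log2(signal + 16), points with ± SE of the limma fit) for the 19 tested member probe sets; filled points passed an adjusted p under 0.05 and an asterisk marks the brightest probe set of a gene. The 2 filled Calr points stand at 0.86 and 0.82 and the Pdia6 point at 0.70, and Ddit3, at -0.58, is the only point below 0.

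Xbp1, the transcription factor downstream of Ern1, had 4 tested probe sets, 1420886_a_at, 1420011_s_at, 1420012_at and 1437223_s_at. They stood at 0.36 ± 0.16, 0.51 ± 0.24, 0.25 ± 0.29 and 0.32 ± 0.18 (limma adjusted p 0.238 to 0.707), all above 0. The brightest, 1420886_a_at, gave 17246, 13564 and 15432 on the knockout and 11058, 10499.8 and 14784 on the wild-type arrays. Wild-type array 8 lay within the knockout range, and wild-type arrays 5 and 7 below it. The same array was apart for 1420011_s_at, with 3744.5, 2849.5 and 3155.5 on the knockout arrays against 1844, 1813 and 3443, and for 1437223_s_at. The dimmest, 1420012_at, overlapped, and its sign turned without knockout array 5 (-0.01) and without wild-type array 7 (-0.06). Without wild-type array 8, 1420011_s_at stood at 0.82 ± 0.20 and passed (adjusted p = 0.0352), and the brightest stood at 0.51 ± 0.17 (adjusted p = 0.104). By list median, wild-type array 8 was also the highest wild-type array for genes of granulocyte-monocyte progenitors. Of the lists below, the same held for other ER chaperones, ER translocation, sensors and regulators, ATF4 and CHOP targets, and chaperones outside the ER. For ER-associated degradation wild-type array 7 was the highest. Mpo, the peroxidase of primary granules, gave 23370.3 on wild-type array 8 and 13036 and 12096 on wild-type arrays 5 and 7. The knockout arrays gave 26909 to 32139. A link between these genes and Xbp1 was not tested.

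Atf4, the factor translated when Eif2ak3 is active, had overlapping groups in both tested probe sets. Probe set 1448135_at gave 2317, 4166 and 2546 on the knockout and 2327, 2592 and 2933 on the wild-type arrays, a difference of 0.16 ± 0.22 (adjusted p = 0.755). Knockout array 7 was the highest, and without it the difference was -0.10. Probe set 1438992_x_at was even over the arrays, with 2269.5, 2177 and 2188 against 2115, 2114 and 2216 (0.04 ± 0.16, adjusted p = 0.927). The third Atf4 probe set, 1439258_at, lay at or below the Bacillus level on all 6 arrays.

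Ddit3, the factor CHOP that promotes death under lasting ER stress, was the only tested member below 0. Its probe set, 1417516_at, gave 415, 265 and 348 on the knockout and 504, 624 and 424 on the wild-type arrays. The groups did not overlap, but by a narrow gap (415 against 424), and the difference of -0.58 ± 0.26 did not pass the test (adjusted p = 0.229). It stayed below 0 in all 15 alternatives in which it was tested, with adjusted p-values of 0.183 to 0.563.

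Other ER folding genes were described from a list that leaves out the 10 members. Of 33 tested chaperones and foldases, 3 rose and 0 fell (1.41% and 2.49% of all 8239 genes tested were higher and lower). Differences lay above 0 for 27, against 49.2% of all genes, and the median difference was 0.22. Hyou1, an exchange factor and chaperone that works with Hspa5, rose by 1.24 ± 0.27 (adjusted p = 0.0227), with 2781, 1870.2 and 2593 on the knockout and 1066, 647 and 1453 on the wild-type arrays. Its other probe sets, 1423290_at and 1451913_a_at, were too dim to be tested. With no brightness filter they stood at -0.83 ± 0.39 and -0.11 ± 0.34 (limma adjusted p = 0.374 and 0.940). The disulfide isomerases Pdia5 and Txndc5 rose by 1.09 ± 0.23 and 0.84 ± 0.17 (adjusted p = 0.0193 for both), while a second Txndc5 probe set, 1423746_at, stood at 0.44 ± 0.28 (0.436). The calls of Hyou1, Pdia5 and Txndc5 were each lost in 5 alternatives (adjusted p up to 0.115, 0.0879 and 0.0801). P4hb, the prototype disulfide isomerase, gave 26143, 24740.4 and 22354 against 18037, 16476 and 18087, without overlap, and stood at 0.48 ± 0.13 (adjusted p = 0.0587). Ero1a, which reoxidises these isomerases, stood at 0.20 ± 0.20 (adjusted p = 0.651), and Dnajc3, a co-chaperone of Hspa5, at 0.05 ± 0.20 (0.927). A dimmer Sumf1 probe set, 1424603_at, chosen after its values were seen, rose by 0.99 ± 0.23 (adjusted p = 0.0351). The brightest Sumf1 probe set, at 0.53, did not pass.

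In the fit blocked on sample number, 6 genes of that list rose and 1 fell (2.33% and 4.03% of all genes). The rises added were P4hb (blocked adjusted p = 0.0287) and, chosen after their values were seen, Manf (0.69 ± 0.20, blocked 0.0425), an ER-resident trophic factor, and Creld2 (0.84 ± 0.27, blocked 0.0399). The gene that fell was Dnajb9, another co-chaperone of Hspa5, with 4372, 5474 and 5755 on the knockout and 6618, 8335 and 8149 on the wild-type arrays (-0.57 ± 0.17, adjusted p = 0.0775, blocked 0.0313).

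Genes of entry into the ER and of N-glycosylation mostly lay above 0. Of 57 tested, 2 rose and 0 fell, beside 1.41% and 2.49% of all genes. Blocked on sample number, 5 rose and 0 fell, beside 2.33% and 4.03%. Differences lay above 0 for 46, against 49.2% of all genes, and the median was 0.22. Rpn2, a subunit of the oligosaccharyltransferase, rose by 0.84 ± 0.17 (adjusted p = 0.0150), with 5222, 5512 and 5924 on the knockout and 2644, 3092 and 3594 on the wild-type arrays. Dpagt1, which starts the synthesis of the sugar donor, rose by 0.94 ± 0.20 (adjusted p = 0.0244). The calls of Rpn2 and Dpagt1 were lost in 4 and 5 of 16 alternatives (adjusted p up to 0.0922 and 0.133). Groups did not overlap for 20 of the 57, higher in the knockout (12.3% of all genes), and for 2, lower (13.1%). The 3 genes that passed only with the block, chosen after their values were seen, were Mogs (0.74 ± 0.20), Ddost (0.76 ± 0.24) and Sec61a1 (0.53 ± 0.19), with blocked adjusted p-values of 0.0399, 0.0245 and 0.0468. Dimmer probe sets of Ssr1 (1.01 ± 0.19), Rpn1 (0.80 ± 0.20) and Sec61a1 (0.64 ± 0.16), also chosen after their values were seen, passed without it (adjusted p = 0.0114, 0.0415 and 0.0422), while the brightest probe set of each did not.

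In ER-associated degradation, which returns misfolded chains to the cytosol, 1 of 31 tested genes rose and 0 fell (1.41% and 2.49% of all genes), with a median of 0.08. That gene was Edem1, a lectin that marks misfolded glycoproteins for disposal, with 2643, 2685 and 2473 on the knockout and 945, 1109 and 1542 on the wild-type arrays. Edem1 rose by 1.14 ± 0.20 (adjusted p = 0.00860) and passed in all 16 alternatives by its brightest probe set. Its second probe set, 1451218_at, overlapped, with 1284, 1327 and 1043 against 1037, 1204 and 1519 (-0.03 ± 0.20, adjusted p = 0.957). Sel1l, a scaffold of the same pathway, stood at 0.23 ± 0.20 (adjusted p = 0.571). A dimmer probe set of Ubxn4, an ER membrane factor of this pathway, chosen after its values were seen, fell by 1.15 ± 0.27 (adjusted p = 0.0340), while its brightest did not pass.

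Among the sensors and regulators of the response no gene passed. Of 24 tested, 0 passed in limma in either direction, with or without the block. Unadjusted p-values under 0.05 came from 1 gene that was higher and 5 that were lower (772 and 922 of all 8239 genes tested). Differences lay above 0 for 12, around a median of 0.00. Ern1 stood at -0.50 ± 0.34, Eif2ak3 at -0.03 ± 0.24 and Atf6 at 0.00 ± 0.22 (adjusted p = 0.466, 0.964 and 0.997). Ppp1r15a (GADD34), the phosphatase subunit that ends translational arrest and is induced with Ddit3, gave 2494, 1903 and 1781 on the knockout and 2844, 4692 and 3339.6 on the wild-type arrays, without overlap. It stood at -0.79 ± 0.21 (adjusted p = 0.0550, and 0.0364 to 0.221 over its alternatives).

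Target genes of ATF4 and CHOP gave calls in both directions. Of 35 tested, 2 rose and 1 fell, beside 1.41% and 2.49% of all genes (4 and 3 when blocked on sample number, beside 2.33% and 4.03%), and the median was 0.18. Differences lay above 0 for 24, against 49.2% of all genes. Groups did not overlap for 9, higher in the knockout (12.3% of all genes), and for 5, lower (13.1%). The genes that rose make serine and use it: Psat1 by 0.68 ± 0.15 and Shmt2 by 0.76 ± 0.16 (adjusted p = 0.0285 and 0.0220), with Shmt2 at 3025, 3000.2 and 2926 against 1672, 1727 and 1859. Their dimmer tested probe sets did not pass. Psat1 1454607_s_at stood at 0.60 ± 0.17 (adjusted p = 0.0702), and Shmt2 1426423_at and 1434204_x_at at 0.60 ± 0.25 and 0.15 ± 0.30 (0.200 and 0.851). Ddit4 (REDD1), an inhibitor of growth signalling, fell by 0.97 ± 0.23 (adjusted p = 0.0351), from 3769 ± 1253 to 1847 ± 199 (SD, n = 3 each). These calls were lost in 8 (Psat1), 7 (Shmt2) and 8 (Ddit4) of 16 alternatives, with adjusted p-values up to 0.146, 0.190 and 0.138. Trib3, a stress-induced pseudokinase, stood at -0.99 ± 0.42 (adjusted p = 0.204), Asns, asparagine synthetase, at 0.27 ± 0.30 (0.688), and Herpud1, an ER membrane protein of the degradation pathway, at 0.29 ± 0.29 (0.646). With the block the serine enzyme Phgdh (0.53 ± 0.16) and the alanyl-tRNA synthetase Aars (0.64 ± 0.17) were added to the rises and Vegfa (-1.45 ± 0.41) and Dnajb9 to the falls, all but Dnajb9 chosen after their values were seen. Their blocked adjusted p-values were 0.0331, 0.0411, 0.0134 and 0.0313. All of these are by brightest probe set. A dimmer Aars probe set, 1451083_s_at, also chosen with its values in view, rose in the main fit (0.76 ± 0.19, adjusted p = 0.0452). The C/EBP-ATF element lay in the windows of 14 of the 34 genes of this list that had a window (3.97% of all windows). Aars, Asns and Trib3 were among the 14, and the called genes Psat1, Shmt2 and Ddit4 were not. The list is one of ATF4 targets, so this share tests nothing.

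Chaperones outside the ER, taken for comparison, had a median as high as the ER lists, 0.24 over 43 tested genes, with 1 higher and 1 lower (1.41% and 2.49% of all genes). Hspe1, the mitochondrial co-chaperonin, rose by 0.72 ± 0.17 (adjusted p = 0.0312), but its call was lost in 9 of 16 alternatives (adjusted p up to 0.230) and its second probe set, 1422579_at, stood at 0.45 ± 0.20 (0.236). Dnajb4, a cytosolic Hsp40, fell by 1.48 ± 0.18 (adjusted p = 0.000736) and passed in all 16. Whether the members or the ER lists differ from these was not tested, and no result here is called particular to the ER.

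**Figure D3:**
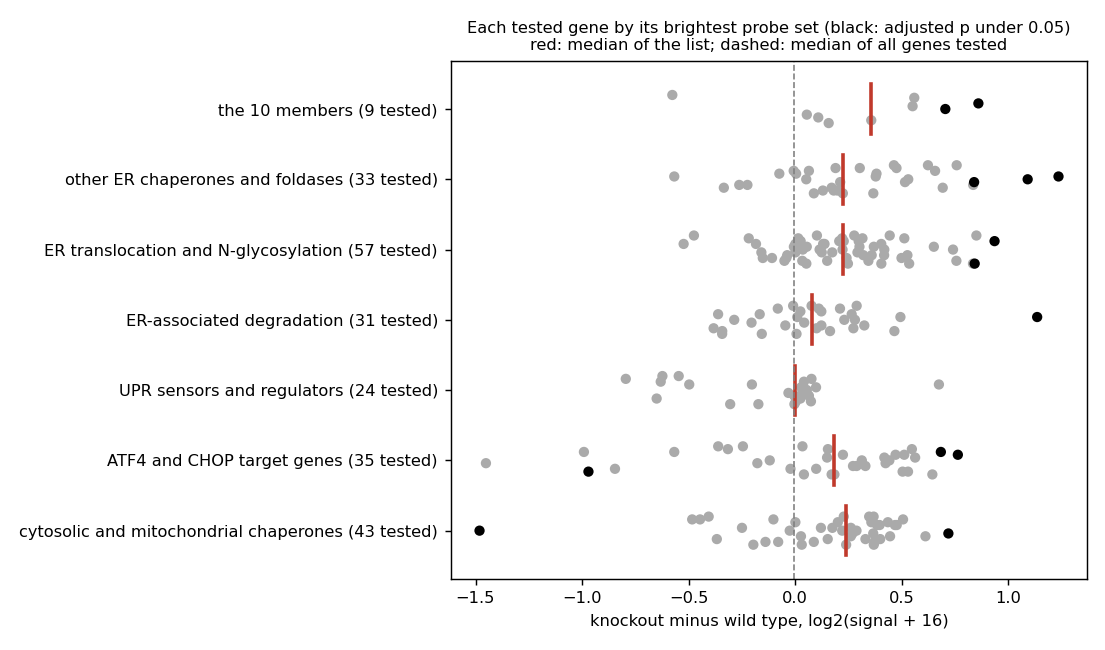
Difference between knockout and wild-type arrays (horizontal axis, log2(signal + 16)) for each tested gene of the 10 members and of 6 further lists, by its brightest probe set; black points passed an adjusted p under 0.05, red bars are list medians and the dashed line is the median of all genes tested. The medians run from 0.36 for the members over 0.22 for the other ER chaperones and foldases to 0.00 for the sensors and regulators.

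Over the 6 lists together, counting each gene once, 9 of 221 tested genes rose and 2 fell, beside 1.41% and 2.49% of all genes. Blocked on sample number, 17 rose and 4 fell, beside 2.33% and 4.03%. Differences lay above 0 for 160, against 49.2% of all genes. The 9 became 2, 3 and 1 without knockout array 5, 7 and 8, 1 without wild-type array 7 and 14 without wild-type array 8, and the 2 became 1 when any of these 5 arrays was left out and 4 without wild-type array 5. Calls over all probe sets moved too when 1 array was left out, to 35 to 270 higher and 89 to 288 lower (196 and 297 with all arrays).

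Markers of other cells moved in the same arrays. Genes of granulocyte-monocyte progenitors and monocytes rose for 11 of 24 tested and fell for 0, beside 1.41% and 2.49% of all genes. The summed signal of 25 such genes was 146142 to 148216 on the knockout and 77250.0 to 110066 on the wild-type arrays. Mpo rose by 0.93 ± 0.21 (adjusted p = 0.0252), a call lost in 7 of 16 alternatives (adjusted p up to 0.121). Neutrophil granule and myelocyte markers fell for 5 of 11 (2.49% of all genes), Camp and Ngp among them, and rose for 1 (1.41%), Mmp8, with summed signals of 8849 to 18414 and 23592 to 46385. Differences lay above 0 for 5 of 18 tested plasma cell and B cell markers, against 49.2% of all genes, and the median was -0.16. Of these 18, 2 rose, Igha and Ighg3, and 1 fell, Cd24a (1.41% and 2.49% of all genes). In the fit blocked on sample number 3 fell, with Sdc1 and Blnk (4.03% of all genes). Dimmer Cd24a probe sets, 1416034_at and 1437502_x_at, stood at -0.65 ± 0.26 and -0.45 ± 0.25 (limma adjusted p = 0.187 and 0.348). The dimmer Ighg3 probe sets, 1426198_at, 1426199_x_at and 1447998_at, lay at or below the Bacillus level on all 6 arrays. The summed signal of the plasma cell and B cell markers overlapped, at 75667 to 155581 and 75888 to 90053. Plasma cells are rich in ER chaperones and Xbp1. Igha gave 60974, 11539 and 22521 on the knockout and 2775, 6418 and 5394 on the wild-type arrays. Over the knockout arrays, by brightest probe set, Xbp1 had the same order as Igha (5, then 8, then 7). Over the wild-type arrays it did not: Igha ran 7, then 8, then 5, and Xbp1 ran 8, then 5, then 7. Among the knockout arrays Calr was also lowest on array 7, and Pdia6 was highest there. Of the dimmer Xbp1 probe sets, 1420011_s_at and 1437223_s_at kept the knockout order of Igha, but 1420012_at ran 5, then 7, then 8. The dimmer Calr probe sets did not share the low on array 7: 1456170_x_at was lowest on array 8 and 1433806_x_at on array 5. Ighm, the heavy chain of IgM, differed between its probe sets: 1427870_x_at rose by 1.56 ± 0.24 (adjusted p = 0.00321) and 1425247_a_at by 2.35 ± 0.45 (0.0141), both picked with their values in view, while its brightest stood at -0.16 (0.672). Sdc1, the plasma cell surface marker, stood at -0.87 ± 0.34, Prdm1, a plasma cell transcription factor, at 0.10 ± 0.25, and Jchain, the antibody joining chain, at 0.02 ± 0.23 (adjusted p = 0.180, 0.876 and 0.974). Pax5, a B cell factor, did not exceed the Bacillus level on any array. Among T, NK, erythroid and stromal markers 0 of 14 passed in limma. At an unadjusted p under 0.05 there were 3 higher and 1 lower (772 and 922 of all 8239 genes tested). Thy1 rose in the blocked fit (0.82 ± 0.24, adjusted p = 0.0431), and Cd4 lay at or below the Bacillus level throughout. The part of the progenitor, neutrophil, plasma cell and B cell genes in the ER results was not tested.

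**Figure D4:**
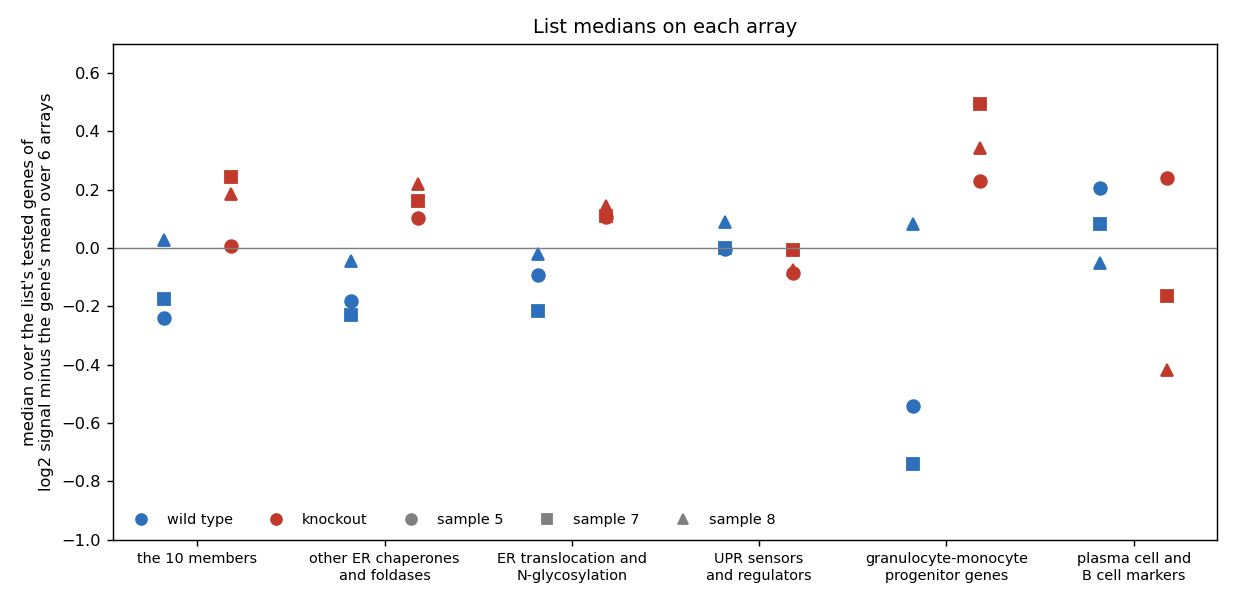
Median over the tested genes of each list of the log2 signal minus that gene's mean over the 6 arrays (vertical axis, log2), on each wild-type (blue) and knockout (red) array, with marker shapes for the sample number. Wild-type array 8 was the highest wild-type array for the members (0.03) and for the granulocyte-monocyte progenitor genes (0.08). It was also the highest for the other ER chaperones (-0.04), ER translocation (-0.02) and the sensors and regulators (0.09). For the plasma cell and B cell markers it was the lowest (-0.05). The knockout arrays lay above the wild-type arrays for the other ER chaperones, ER translocation and the progenitor genes, as they did for the ATF4 and CHOP targets and the chaperones outside the ER, which are not drawn.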

How the data were processed

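Expression was measured on 6 single-colour Affymetrix arrays, 3 per group, from sorted LSK cells. Per the labels' protocols, 10 ng of total RNA went through 2 rounds of amplification, which favours the 3' end of transcripts. The deposited values are intensity values, 1 linear signal per probe set, made with MAS5 per the submitters' processing notes, its version and settings not given in the sources used here. The columns came scaled to a 2% trimmed mean of 1000.3 to 1000.4.

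From these, log2(signal + 16) was computed, and the 60% of non-control probe sets with the highest mean log2 value were tested with limma 3.58.1 in R 4.3.3 (lmFit, eBayes with trend), without further normalization, with p-values adjusted by the Benjamini-Hochberg method. The fit was tested on simulated data with known changes. Names came from the platform annotation, 20380 probe sets with 1 symbol, 691 with several and 1555 with none. A gene of a list was taken by its brightest probe set, and 351 of 393 list entries matched. Named were all member probe sets, up to 6 genes of a list past the threshold, and genes fixed by name. The brightest of 27 Bacillus control probe sets of each array served as background level. Promoter sequences and starts are RefSeq's, GRCm38.p6, and all 10 members matched. The members and lists were chosen with earlier results of these data known.

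The main fit ignored the sample numbers: every difference, SE and adjusted p not called blocked is unpaired. Only an alternative fit took the number as a block. The knockout and wild-type arrays numbered 5, 7 and 8 deviated together from their group means (r = 0.159, 0.168 and 0.238), each above 0.1 (against -0.134 to -0.0307 for different numbers). The labels do not say what a number marks. Alternatives were this block, other pseudocounts, filters, normalizations and variance priors, probe sets without _x_at and _s_at, and each array left out.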

Additional observations from a re-analysis of the deposited data

How the results depend on the processing

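The median difference of the members stayed above 0 in all 17 alternatives, from 0.30 to 0.45. No member or pathway gene called in the main fit changed direction in any alternative that tested it. Of the other called genes only Mpo and Kit were followed, and neither changed direction. With the sample number as a replicate block, 320 probe sets were higher and 479 lower (196 and 297 without), and 17 and 4 pathway genes; the block changed no call of a member. Without the brightness filter these were 69 and 119, and 4 and 1. With median centring 193 probe sets and 1 pathway gene were lower. With eBayes without trend there were 57 and 124, 0 member probe sets, and 2 and 1 pathway genes. Leaving out 1 array gave 35 to 270.0 higher and 89 to 288 lower probe sets, 0 to 4 higher member probe sets, 1 to 14 higher and 1 to 4 lower pathway genes, and a Gfi1 difference of 0.45 to 1.10, which passed without knockout array 5 (adjusted p = 0.0352). Dim signals limit Pdia4, which no fit with the filter tested except without wild-type array 7.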
